A study of Mus musculus with 32 samples.

Results

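The Hox genes are the homeobox transcription factor genes of clusters A to D. Every gene whose symbol is Hox, a cluster letter and a paralogue number was taken, with Ensembl rows mapped to symbols, which gave 39 of the 43035 genes in the tables. Cluster A holds 11 of them, cluster B 10, cluster C 9 and cluster D 9. They were measured by RNA-seq in 32 libraries from mice fed doxycycline chow, whose inducible gene the labels give as DUX4, a human transcription factor, or as WT for the controls. Whole muscle gave 18 libraries, with 5 of DUX4 and 5 of WT mice after 2 weeks (IDUX.2Weeks, WT.2Weeks) and 4 of each after 16 weeks (IDUX.16Weeks, WT.16Weeks). Cells sorted from hind limb muscle gave 14 libraries of 75000 cells each. These were CD31+ endothelial cells (CD31DUX, 4; CD31WT, 3) and PDGFRa+ fibro-adipogenic progenitors (FAPs), the connective tissue progenitors of muscle (PDGDUX, 4; PDGWT, 3). The labels give neither the age of the mice, nor the muscle taken for the whole-muscle libraries, nor the promoter that drives the inducible gene, nor a time point for the sorted cells. Nor do they say that each library is a separate animal, so the p-values measure only the spread between these libraries, which may be technical. The transgene itself was not analysed here, and each genotype rests on its label.

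Hox genes lie in each cluster in the order in which they act along the body, low paralogue numbers towards the head and high numbers towards the tail, and in the limb the high numbers act towards the digits. Adult connective tissue, vessels and muscle keep part of the Hox pattern of the place where they formed. Hox proteins bind DNA together with the TALE cofactors of the Pbx, Meis and Pknox families, while Polycomb and trithorax proteins keep the clusters off or on.

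The 3 neighbouring genes Hoxd8, Hoxd9 and Hoxd10 of cluster D on chromosome 2 are shown first by the sequence before their start sites (RefSeq, GRCm38.p6, + strand, 5′ to 3′). Between sets of whole-muscle libraries Hoxd8 and Hoxd9 moved together and Hoxd10 apart from them. Capitals mark a CCAAT box, written ATTGG where it lies on the other strand. The Hoxd10 window is chr2:74691641-74691890. The Hoxd9 window is chr2:74697513-74697726, from which 36 bases next to the start site were left off because the annotation used here has an exon of Hoxd9 there. The Hoxd8 window is chr2:74704365-74704614.
Hoxd10: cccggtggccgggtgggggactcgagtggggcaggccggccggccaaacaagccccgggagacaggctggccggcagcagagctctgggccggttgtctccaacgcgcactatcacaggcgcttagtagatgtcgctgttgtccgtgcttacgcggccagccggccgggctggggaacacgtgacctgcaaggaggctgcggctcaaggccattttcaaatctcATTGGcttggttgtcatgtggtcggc
Hoxd9: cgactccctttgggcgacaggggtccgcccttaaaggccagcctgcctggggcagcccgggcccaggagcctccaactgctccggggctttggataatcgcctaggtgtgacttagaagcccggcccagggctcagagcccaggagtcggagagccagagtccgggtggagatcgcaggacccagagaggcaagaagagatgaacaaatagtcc
Hoxd8: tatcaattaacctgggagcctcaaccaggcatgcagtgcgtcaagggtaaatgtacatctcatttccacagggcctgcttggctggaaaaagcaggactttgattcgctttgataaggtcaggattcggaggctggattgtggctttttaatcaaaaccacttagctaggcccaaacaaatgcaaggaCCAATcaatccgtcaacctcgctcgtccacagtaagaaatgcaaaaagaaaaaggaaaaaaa

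RefSeq promoters matched 22 Hox genes, with 24 start sites. None was in the table for Hoxc9, Hoxc10 or Hoxc11. The 250 bases before the start of Hoxd10 were 65.6% G and C with 20 CpG, and those of Hoxd9 were 65.2% with 13, while Hoxd8 had 44.4% and 6. Over all 32851 promoters the medians were 52.4% and 6 CpG. A CCAAT box, searched on both strands, lay 26 to 22 bases before the start of Hoxd10 and 62 to 58 bases before that of Hoxd8, and 33.9% of all promoters hold one. No TATAAA (12.4% of all promoters), no PBX-HOX composite TGATNNAT (7.68%), no MEIS site TGACAG (15.9%) and no posterior HOX core TTTATNG (9.81%) stood in any of the windows of Hoxd8, Hoxd9 and Hoxd10. These are matches of letters in these windows only. Of the full 250 bases before the start of Hoxd9, counted before any were left off, 74 are also an exon of the antisense transcript Gm28793.

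Total counts per library ranged from 6.07 M to 20.67 M, so that 3 counts correspond to 0.145 to 0.494 CPM (counts per 1 M counts). CPM was scaled by library composition (TMM). The 2-week libraries fall into 2 sets, replicates 1 to 3 and replicates 4 and 5, each with both genotypes, and the fit holds a term for them. WT.16Weeks replicates 1 and 4 stood apart in earlier results of these data. The sorted cells carried their markers. The 8 endothelial markers summed to 3070 to 4770 CPM in the endothelial libraries and to 93.4 to 263 in the FAPs, and the 8 FAP markers to 108000 to 156000 CPM in the FAPs. In the endothelial libraries the FAP markers summed to 26900 to 31800 CPM in CD31DUX and 7960 to 10800 in CD31WT.

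Which Hox genes were expressed differed between the materials. With a mean of at least 1 CPM as expressed, 18 of the 39 genes were so in 2-week replicates 1 to 3, 22 in replicates 4 and 5, 20 after 16 weeks, and in the sorted material 22 in endothelial cells against 15 in FAPs. Whole-muscle and sorted libraries were made with different kits, and levels are set side by side between them without a test. The top paralogue number was 10 in replicates 1 to 3, where Hoxc4, Hoxc5, Hoxc6 and Hoxc8 stood for cluster C. In replicates 4 and 5, at 16 weeks and in FAPs, cluster C was expressed from Hoxc4 to Hoxc11, 7 genes, and in endothelial cells 3 were, Hoxc6, Hoxc9 and Hoxc10. Cluster B had 6 genes in endothelial cells, 4 and 5 in the 2-week sets, 1 at 16 weeks (Hoxb1) and 1 in FAPs (Hoxb2). The 16-week mean of Hoxb1, 1.26 CPM, was raised by 5.27 CPM in IDUX.16Weeks replicate 3, and its median was 0.85. Hoxd12 had no count in any library.

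**Figure D1:**
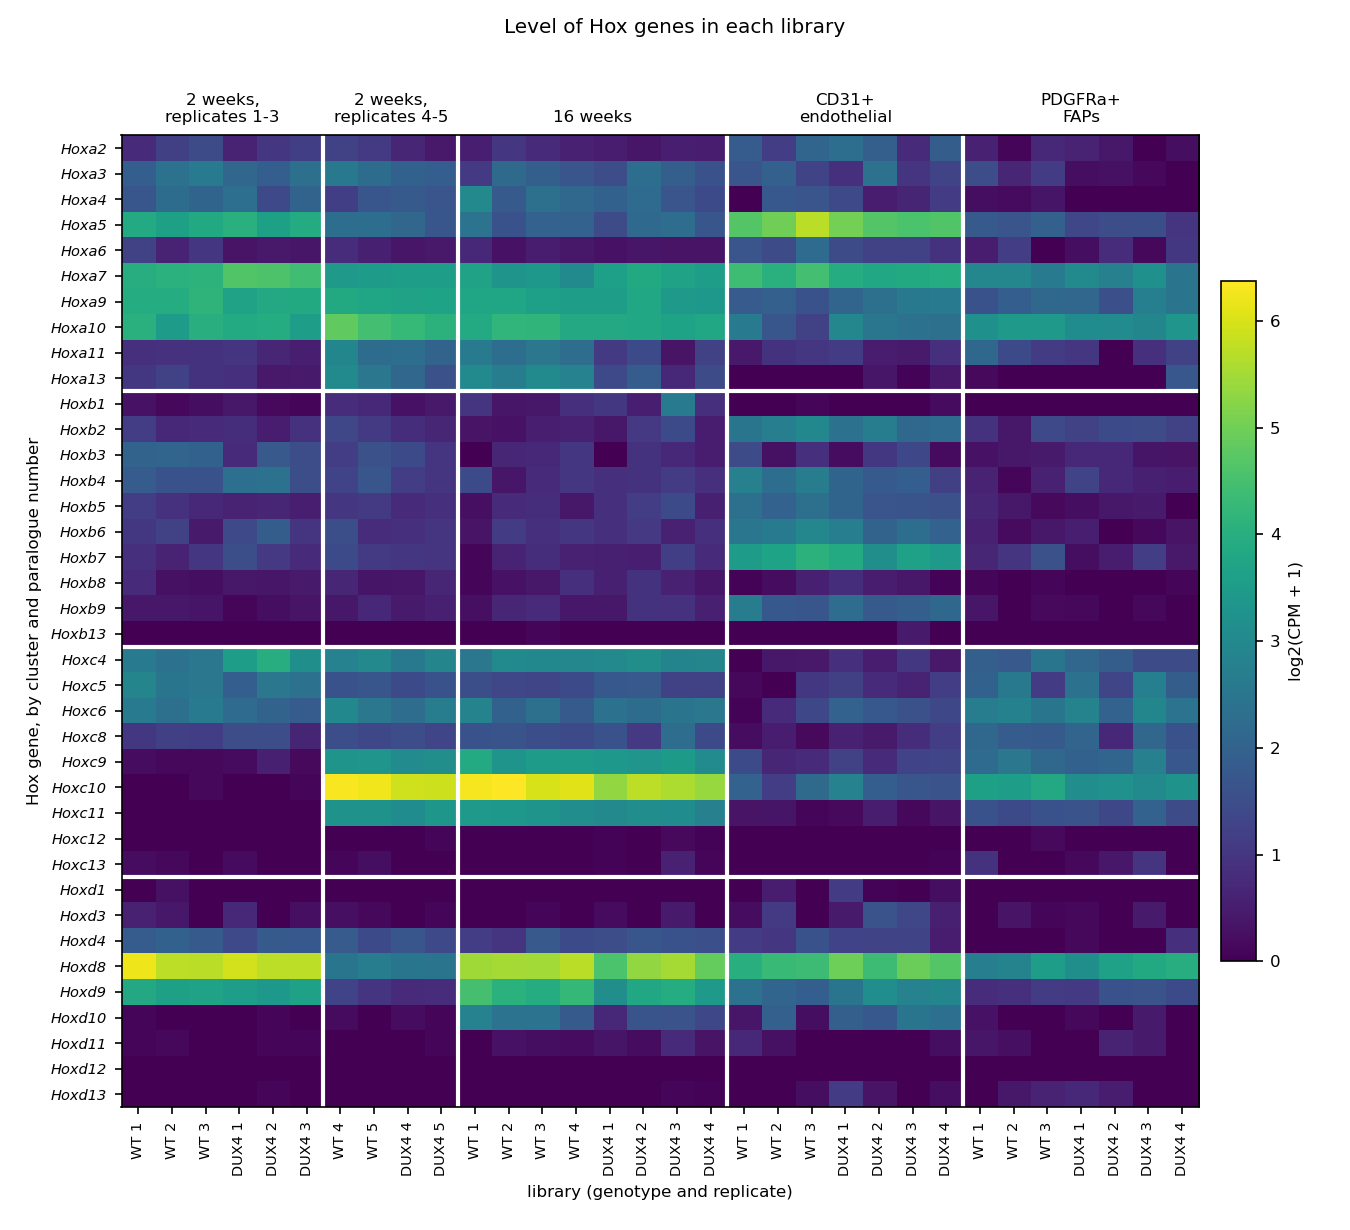
Level of Hox genes (rows, by cluster and paralogue number) in the 32 libraries (columns, by material, genotype and replicate), coloured by log2(CPM + 1). Hoxc9, Hoxc10 and Hoxc11 are dark in 2-week replicates 1 to 3 and lit in the other whole-muscle libraries, and cluster B is brightest in endothelial cells.

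Levels can be set against each other between genes only per kilobase of exon. Hoxd8 led in replicates 1 to 3 with a mean of 20.8 CPM per kb, ahead of Hoxa5 with 7.07, Hoxa7 with 6.64 and Hoxd9 with 5.33. In replicates 4 and 5 Hoxc10 led with 35.4, followed by Hoxa10 with 6.34, Hoxc11 with 4.24 and Hoxa7 with 3.66. The leading gene thus differed between 2 sets of muscle of the same time point. At 16 weeks the order was Hoxc10 (30.7), Hoxd8 (14.5), Hoxd9 (6.75) and Hoxa10 (4.30), with leading genes of both sets. Endothelial cells had Hoxa5 at 16 CPM per kb, Hoxd8 at 8.23, Hoxb7 at 7.57 and Hoxa7 at 5.57. FAPs had Hoxc10 at 5.05, Hoxd8 at 3.68, Hoxa10 at 2.57 and Hoxa7 at 2.21.

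As a share of the summed Hox CPM per kb, cluster C made up 9.38 to 15.1% in replicates 1 to 3, 62.6 to 66.9% in replicates 4 and 5 and 46.4 to 54.6% at 16 weeks. Cluster D went the other way, with 39 to 48.8%, 3.76 to 4.21% and 20.4 to 30%. The ranges of the 3 sets do not touch for either cluster. In the sorted cells cluster C held 2.82 to 8.47% in endothelial cells and 38.6 to 52.0% in FAPs, and cluster B 21.3 to 30.5% and 3.61 to 7.75%. Paralogues 9 to 13, the posterior genes, held 18.3 to 23.3% in replicates 1 to 3, 72.7 to 74.9% in replicates 4 and 5, 56.1 to 70.2% after 16 weeks, and 7.40 to 20.9% in endothelial cells against 41.1 to 50.1% in FAPs. The sum itself was of the same order in whole muscle, with 57.3 to 70.0, 66.6 to 88.5 and 64.1 to 111.0 CPM per kb, so the sets differed in which genes made it up more than in its size.

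**Figure D2:**
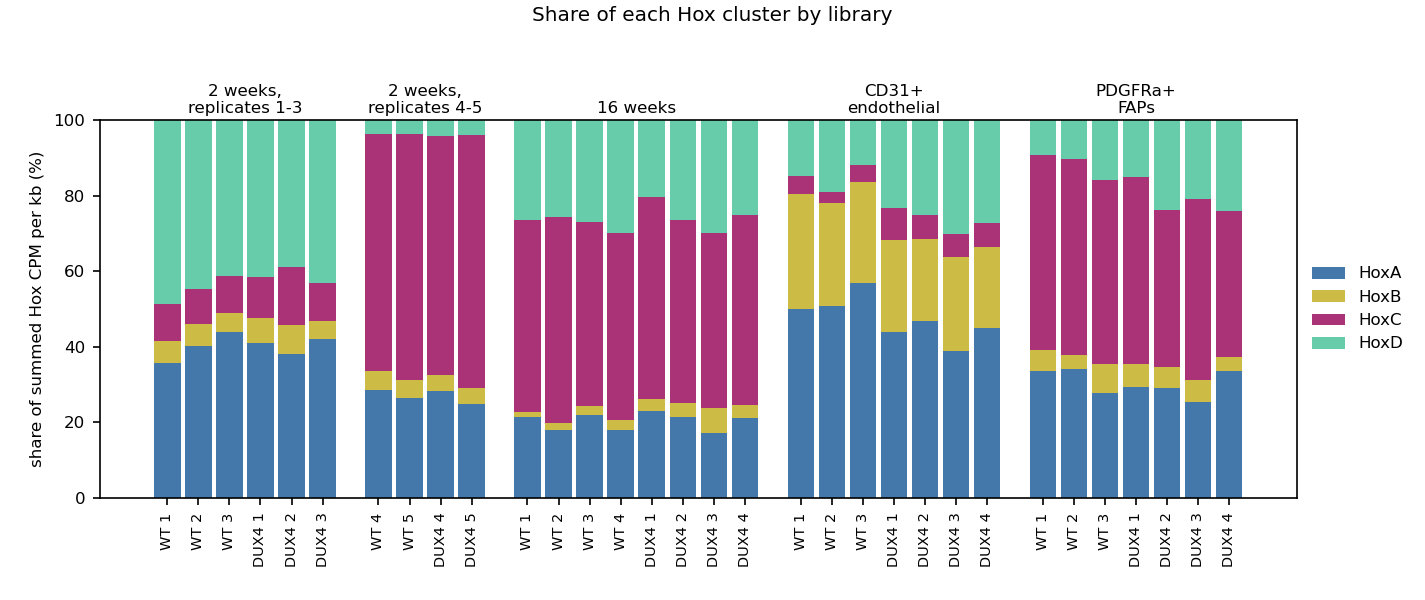
Share of each Hox cluster (stacked bars, percent of the summed Hox CPM per kb) in each library, by material, genotype and replicate. Cluster C holds 9.38 to 15.1% in 2-week replicates 1 to 3 and 62.6 to 66.9% in replicates 4 and 5, and cluster B is largest in endothelial cells.

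Between the 2-week sets, posterior genes of clusters A and C were higher in replicates 4 and 5, and Hoxd8, Hoxd9, Hoxa5 and Hoxc5 in replicates 1 to 3. The sets were first told apart by Hox genes, so these values are a description with no test. Hoxc10 (chr15:102966796-102971893, + strand, GRCm38), a posterior gene known for hind limb expression, was at 0 in 4 of the 6 libraries of replicates 1 to 3 and at 0.0634 and 0.0917 CPM in the others, 2 counts in all. In replicates 4 and 5 it was at 59.1 and 58.4 CPM in DUX4 and 77.9 and 74.6 in WT muscle, and at 16 weeks between 39.7 and 82.0 with a median of 57.8. The ratio of pooled CPM of replicates 4 and 5 over 1 to 3 was 2701, with a 95% counting interval of 747 to 22311, which covers counting error only. No library of the first set came near any library of the others.

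The neighbours of Hoxc10 in the cluster followed it. Hoxc11 (chr15:102954427-102957708), the next gene towards the posterior end, was at 0 in all 6 libraries of replicates 1 to 3. It was at 7.57, 9.39, 8.71 and 8.57 CPM in replicates 4 and 5 and at 5.85 to 9.76 at 16 weeks (median 7.75). Against the floor of 3 counts per library it was at least 36.4-fold higher in replicates 4 and 5. Hoxc9 (chr15:102976439-102985099) was at 0.183 ± 0.146 CPM (SD, n = 6) in replicates 1 to 3. It reached 7.49, 7.87, 8.91 and 9.04 CPM in replicates 4 and 5, 45.6 times the mean of replicates 1 to 3, and 7.40 to 13.9 at 16 weeks. For both genes replicates 1 to 3 lay below every library of the other sets, while replicates 4 and 5 overlapped with 16 weeks. The anterior side of the cluster did not share the pattern: Hoxc5 was 2.28 times higher in replicates 1 to 3, at 4.6 ± 1.18 CPM (SD, n = 6) against 2.01 ± 0.233 (SD, n = 4). Hoxc5 and Hoxc10 share 166 exon bases on the same strand, 5.4% and 8.7% of their exon lengths.

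Of the 3 genes of cluster D shown by sequence, Hoxd8 and Hoxd9 moved together and Hoxd10 apart from them. Hoxd8 was at 51.2 to 73.4 CPM (median 52.3) in replicates 1 to 3, at 4.56, 4.49, 4.59 and 5.56 in replicates 4 and 5, and at 22.7 to 51.4 (median 43.6) at 16 weeks. Hoxd9 was at 9.46 to 13.5 CPM (median 11.4), then at 0.695, 0.759, 1.42 and 0.942, then at 7.95 to 21.5 (median 14.4). Both were thus low in replicates 4 and 5 alone among the whole-muscle sets, with ratios of means of 11.9 between the 2-week sets for each of Hoxd8 and Hoxd9. Hoxd10 had 2 counts in replicates 1 to 3, 5 counts in replicates 4 and 5 and 2.98 ± 1.8 CPM at 16 weeks (SD, n = 8). The pooled ratio of 16 weeks over replicates 1 to 3 was 115 (95% counting interval 31.6 to 953), and over replicates 4 and 5 it was 30.3 (12.8 to 93.8). Hoxd10 was therefore the gene of cluster D that set the 16-week libraries apart from both 2-week sets.

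In cluster A, Hoxa5 (chr6:52201754-52204587, - strand), which patterns the neck and thorax and the lung, was at 11.3 to 15.5 CPM (median 13.7) in replicates 1 to 3. It was at 3.32, 2.28, 3.92 and 3.95 CPM in replicates 4 and 5, 3.94 times lower, and at 2.97 ± 0.925 (SD, n = 8) at 16 weeks. The distal limb genes Hoxa11 and Hoxa13 stood the other way round: Hoxa11 was at 0.77 ± 0.207 CPM (SD, n = 6) against 4.36 ± 1.55 (SD, n = 4). Hoxa13 was at 0.829 ± 0.405 against 4.32 ± 2.21 CPM with the same n. Ratios of means of replicates 4 and 5 over 1 to 3 were 5.66 for Hoxa11 and 5.21 for Hoxa13. Between them and Hoxa5, the middle genes differed less, Hoxa7 with means of 19.1 and 10.5 CPM, Hoxa9 with 14.1 and 12.5, and Hoxa10 with 13.4 and 20.7.

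Counted over the 27 Hox genes that passed the filter on low counts in whole muscle, 4 were higher in replicates 1 to 3 without overlap and with a mean ratio of at least 2, where 2.77% of all 15396 genes tested were. Lower in the same way were 5, Hoxa11, Hoxa13, Hoxc9, Hoxc10 and Hoxc11, where 0.831% of all genes were. At 16 weeks, 4 were higher than in replicates 1 to 3 (Hoxc9, Hoxc10, Hoxc11 and Hoxd10; background 2.31%) and 3 lower (Hoxa5, Hoxb4 and Hoxc5; 1.31%). Against replicates 4 and 5, 3 were higher (Hoxd8, Hoxd9 and Hoxd10; 1.14%) and 0 lower (1.13%). Other lists also differed between the sets. The 6 slow fibre markers summed to 522 to 1400, 182 to 375 and 4000 to 7580 CPM, and the adipocyte markers to 61.4 to 222 CPM in replicates 1 to 3 and 1.66 to 15.5 in replicates 4 and 5. The part of these in the Hox differences was not tested. At 16 weeks, time on the diet, age and any difference in the muscle taken cannot be told apart. In whole tissue, fewer cells of a type and less RNA per cell cannot be told apart either. The 12 Hox genes not tested here, among them Hoxb8, Hoxb9, Hoxc12, Hoxc13, Hoxd11 and Hoxd13, reached at most 1.39 CPM (Hoxa6) in any whole-muscle library.

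**Figure D3:**
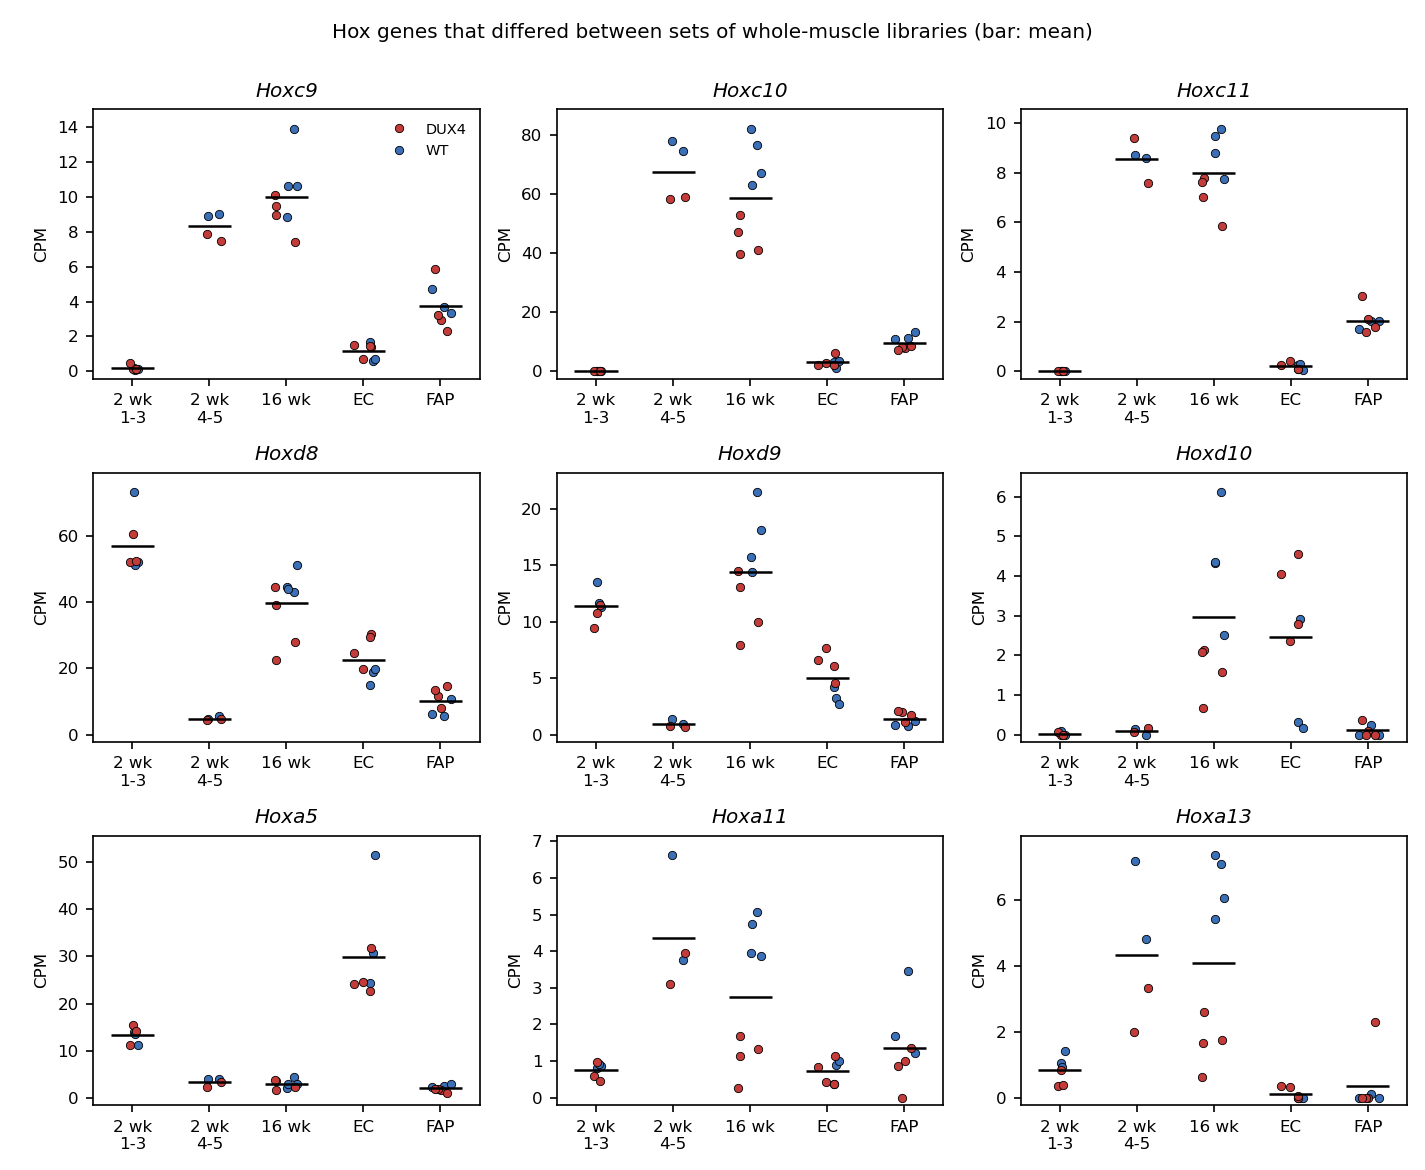
CPM of Hox genes that differed between the sets of whole-muscle libraries (each point a library, DUX4 red, WT blue; bar, mean), beside endothelial cells (EC) and FAPs. Hoxc9, Hoxc10 and Hoxc11 lie near 0 in 2-week replicates 1 to 3, Hoxd8 and Hoxd9 are low in replicates 4 and 5, and Hoxd10 is high at 16 weeks alone among the whole-muscle sets.

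After 16 weeks, 5 of the 9 posterior Hox genes tested were lower in DUX4 than in WT muscle by edgeR, which called no Hox gene higher. Of the 27 tested, 5 fell and 0 rose (18.5% called), Hoxa11, Hoxa13, Hoxc10, Hoxd9 and Hoxd10, where 30.2% of all genes were called, 16.5% higher and 13.7% lower. The share called in either direction is thus below the background, while the share called lower was 18.5% beside 13.7%, a difference that was not tested. All 5 are among the 9 tested paralogues 9 to 13, whose median log2 change was -0.62. By edgeR none of the 13 of paralogues 4 to 8 or the 5 of paralogues 1 to 3 was called, with medians of 0.11 and 0.09. The median was -0.14 over the 27 and 0.01 over all genes. With no adjustment 4 Hox genes were higher at p under 0.05 and 6 lower, while DESeq2 called 0 higher and 6 lower and limma voom 2 higher and 7 lower. In cluster D, where edgeR called 2 of 4 lower, both of these tools called 3.

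Hoxa13 (chr6:52257694-52260880, - strand), the most posterior gene of cluster A, which patterns hand and foot, was at 1.65, 2.59, 0.635 and 1.76 CPM in DUX4 and at 7.09, 5.43, 7.35 and 6.05 in WT muscle. The groups do not overlap, and the change was -2.01 ± 0.35 (log2, SE; edgeR adjusted p = 0.000504). It was called under all 16 alternatives run. Hoxa11 (chr6:52242106-52245810), which patterns the forearm and lower leg, was at 1.13, 1.68, 0.254 and 1.33 CPM in DUX4 and 5.07, 3.96, 4.75 and 3.86 in WT. It fell by 2.05 ± 0.38 (edgeR adjusted p = 0.000962), again without overlap. IDUX.16Weeks replicate 3 had the lowest value of both genes. Hoxa11os, the antisense transcript that shares 35.0% of the exon length of Hoxa11 on the opposite strand, fell by 1.34 ± 0.39 (edgeR adjusted p = 0.016), from 2.71 to 3.25 CPM in WT to 0.508 to 1.63 in DUX4 muscle. Since the counting is not stated to use strand, reads of Hoxa11 and Hoxa11os cannot be told apart.

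Hoxc10 was at 39.7, 52.7, 47.2 and 41.0 CPM in DUX4 and 76.6, 82.0, 62.9 and 67.2 in WT muscle at 16 weeks, with no overlap. Its change was -0.68 ± 0.16 (edgeR adjusted p = 0.00403). Its mean was 72.2 ± 8.67 CPM in WT and 45.1 ± 6.02 in DUX4 muscle (SD, n = 4 each). Without the term for the 2-week sets, whose Hoxc10 levels then enter the spread, Hoxa11 and Hoxc10 lost the call (edgeR adjusted p = 0.0613 and 0.802). The genes beside Hoxc10 did not pass the test, with -0.29 ± 0.23 for Hoxc9 and -0.35 ± 0.16 for Hoxc11 (edgeR adjusted p = 0.366 and 0.124).

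Hoxd9 was at 7.95, 13.1, 14.5 and 10 CPM in DUX4 and 21.5, 15.7, 14.4 and 18.1 in WT muscle. The ranges overlap by 1 library of each genotype, and the change was -0.62 ± 0.19 (edgeR adjusted p = 0.0198). Hoxd10 was at 0.658, 2.13, 2.09 and 1.59 CPM in DUX4 and 6.12, 4.34, 4.35 and 2.52 in WT muscle, without overlap. It fell by 1.46 ± 0.45 (edgeR adjusted p = 0.0227). Both calls rest on few libraries. Without WT.16Weeks replicates 1 and 4, an alternative added after seeing the data, the edgeR adjusted p was 0.153 for Hoxd9 and 0.0528 for Hoxd10. Without IDUX.16Weeks replicate 1 these were 0.066 and 0.0712, and without replicate 4, 0.0592 and 0.0545. Hoxd10 also lost the call without WT.16Weeks replicate 1 (0.0543), and Hoxd9 with only the 16-week groups in the fit (0.0593) and without the term for sets (0.599). Hoxd8, their neighbour, was at -0.45 ± 0.18 (edgeR adjusted p = 0.0628).

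In cluster A the posterior genes Hoxa9 and Hoxa10 did not pass the test at 16 weeks, with -0.14 ± 0.11 and -0.27 ± 0.15 (log2, SE; edgeR adjusted p = 0.388 and 0.194). Hoxb4, at a mean of 0.927 CPM, was at -0.04. The highest positive change was that of Hoxb1, the hindbrain gene of cluster B, at 1.68 ± 0.66 (edgeR adjusted p = 0.0639). Its DUX4 libraries were at 1.03, 0.457, 5.27 and 0.86 CPM, so replicate 3 alone lay far above. By library, paralogues 9 to 13 held 56.1 to 61.9% of the summed Hox CPM per kb in DUX4 and 65.2 to 70.2% in WT muscle, and the sum was 64.1 to 84.7 against 96.7 to 111.0.

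Markers of cell types moved with these falls. Of the muscle fibre markers 6 of 8 were called lower in DUX4 muscle at 16 weeks, with sums of 59600 to 94500 against 148000 to 165000 CPM. Of the FAP markers 5 of 8 were higher (905 to 1620 against 166 to 710 CPM, the lowest in WT.16Weeks replicate 1), as were 4 of 6 tendon markers (202 to 382 against 42.3 to 81.8), 5 of 6 macrophage markers (46.4 to 124 against 17.8 to 64.6), 3 of 6 satellite cell markers (91.2 to 125 against 53.8 to 152) and 3 of the 3 adipocyte markers tested (81.8 to 260 against 12.1 to 45.8). The part of these in the Hox falls was not tested. In sorted FAPs, made with another kit and scaled apart, Hoxc10 was at 7.30 to 13.4 CPM and Hoxd9 at 0.741 to 2.09. Hoxa11 was at 0 to 3.46 CPM there and Hoxd10 at 0 to 0.379. Hoxa13 was listed at 0 in 5 of 7 FAP libraries, with a highest value of 2.31 CPM, and in 4 of 7 endothelial libraries. No test sets these levels against whole muscle.

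**Figure D4:**
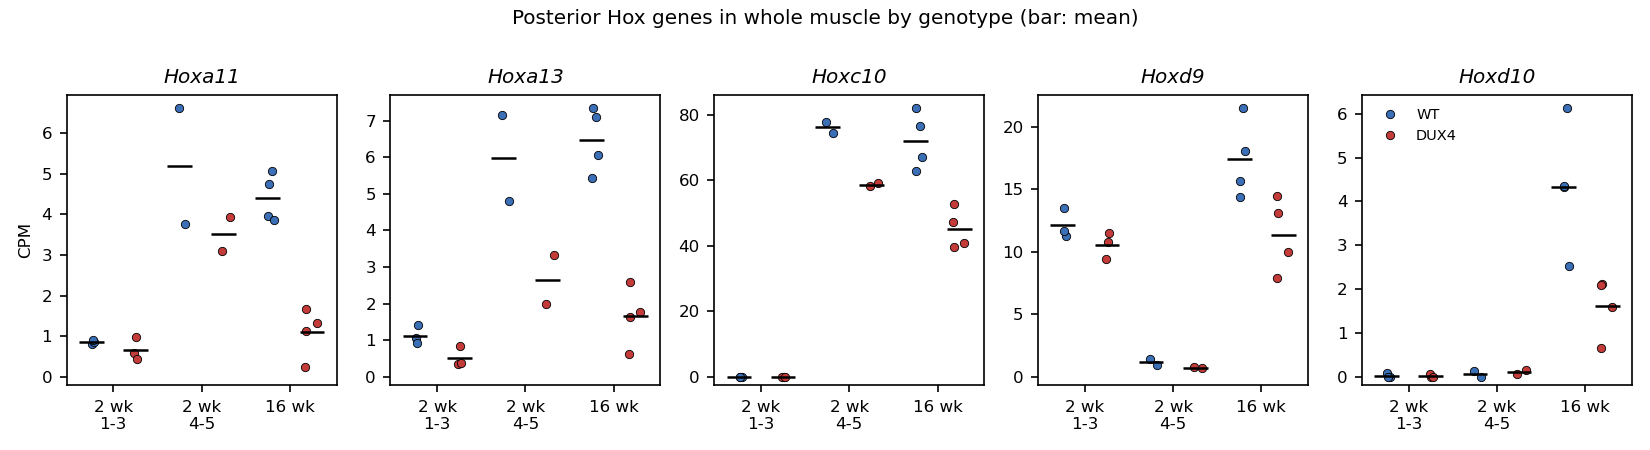
CPM of Hoxa11, Hoxa13, Hoxc10, Hoxd9 and Hoxd10, in the 2-week sets and at 16 weeks (each point a library, WT blue, DUX4 red; bar, mean). At 16 weeks DUX4 and WT libraries do not overlap for any of them but Hoxd9, and within each 2-week set every DUX4 library lies below every WT library for Hoxa13.

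After 2 weeks edgeR called a single Hox gene between the genotypes, Hoxa13, which fell (3.7% of the 27, against 20.7% of all genes, 12.5% higher and 8.24% lower). DESeq2 called 2 higher and 1 lower, and limma voom 2 higher and 2 lower. In replicates 1 to 3 it was at 0.849, 0.357 and 0.38 CPM in DUX4 and 1.06, 1.41 and 0.917 in WT muscle. In replicates 4 and 5 it was at 3.32 and 2.0 against 7.16 and 4.8. In each set every DUX4 library lay below every WT library, although the sets differed 5.21-fold in mean. The change was -1.13 ± 0.33 (log2, SE; edgeR adjusted p = 0.0228), and -1.13 and -1.17 within the sets fitted alone, where it was not called (0.141 and 0.302). The call was also lost without the term for sets (0.223) and without IDUX.2Weeks replicate 2 (0.0584) or 5 (0.0709) or WT.2Weeks replicate 2 (0.0546) or 4 (0.0733). Called lower here were also 7 of 8 muscle fibre markers, 2 of 8 endothelial and 2 of 6 mural markers (mural sums 205 to 597 against 384 to 767 CPM). Called higher were 2 of 6 slow fibre, 2 of 6 macrophage (57.9 to 144 against 26.6 to 88.2) and 1 of 6 satellite cell markers, and of 6 tendon markers 1 was higher and 1 lower. Their part was not tested. The other 4 genes that fell at 16 weeks were not called, with Hoxa11 at -0.46 ± 0.35, Hoxc10 at -0.38 ± 0.22, Hoxd9 at -0.33 ± 0.19 and Hoxd10 at 0.15 ± 0.93.

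The difference between the 16-week and the 2-week effects was tested itself and called for none of the 27 by edgeR (0.89% of all genes were). With no adjustment 3 genes were more positive at 16 weeks and 1 more negative at p under 0.05, and DESeq2 called 0 and 1 and limma voom 0. Hoxa11 was at -1.59 ± 0.51 (edgeR adjusted p = 0.132) and Hoxa13 at -0.88 ± 0.47 (0.311).

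In the sorted cells genes of cluster C were higher in FAPs, and most tested genes of cluster B and 3 of 5 of cluster D, Hoxd9 among them, were higher in endothelial cells. Between WT cells 8 of the 29 Hox genes tested were higher in FAPs and 12 lower (69.0%), against 31.1% of all 17008 genes, 16.7% higher and 14.5% lower. DESeq2 called 8 and 14. All 7 tested genes of cluster C were higher in FAPs and the median was 2.96. In cluster B 6 of 7 were lower (median -3.43), in cluster A 3 of 10 lower and 1 higher (-1.90), and in cluster D 3 of 5 lower (-1.93). Markers of other cell types were lower in WT FAPs as well, 6 of 6 satellite cell markers (122 to 158 against 371 to 516 CPM in CD31WT), 5 of 6 mural (355 to 397 against 1190 to 1530), 4 of 5 Schwann (29.5 to 62.0 against 145 to 218), 6 of 8 muscle fibre (19.8 to 80.4 against 107 to 296) and 4 of 6 tendon markers (721 to 1070 against 1130 to 1300). Of the mural and of the tendon markers, 1 each was called higher in WT FAPs. The part of these cells in the Hox differences was not tested.

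The highest member in endothelial cells was Hoxa5, at 24.4, 30.7 and 51.5 CPM in CD31WT and 2.47, 2.23 and 2.86 in PDGWT. It was lower in FAPs by -3.81 ± 0.33 (log2, SE; edgeR adjusted p = 1.47e-07). Hoxb7 (chr11:96286623-96290162, + strand), a trunk gene, was at 10.5, 12.0 and 16.2 CPM in CD31WT and 0.618, 0.947 and 1.98 in PDGWT, a change of -3.43 ± 0.56 (edgeR adjusted p = 0.000151). Neither gene overlaps between the cell types. Hoxb6 was at 4.66, 5.03 and 6.73 against 0.494, 0.135 and 0.33 CPM, and Hoxb4 at 5.91, 3.91 and 5.49 against 0.556, 0.0676 and 0.494. Hoxa7 was the least unequal of these, at 20.1, 15.4 and 21.2 against 6.79, 6.7 and 5.16 CPM (-1.60 ± 0.27). Hoxd8 and Hoxd9 were also lower in FAPs, by -1.24 ± 0.30 and -1.87 ± 0.48. Hoxd4 was listed at 0 in every PDGWT library and at least 7.71-fold lower there, against the floor of 3 counts per library. On the same strand it shares 39.1% of its exon length with Gm28230 and 13.2% with Hoxd3. How reads of the shared bases were assigned is not given in the sources used here.

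Of cluster C, Hoxc10 was at 11.3, 11 and 13.4 CPM in PDGWT and 3.01, 1.23 and 3.6 in CD31WT (2.18 ± 0.47; edgeR adjusted p = 0.00168). Hoxc11 was at 2.04, 1.69 and 2.03 against 0.259, 0.28 and 0.059 CPM (3.21 ± 0.85). Hoxc9 was at 3.71, 4.74 and 3.35 against 1.71, 0.615 and 0.709 CPM (1.95 ± 0.61). Each was higher in every FAP library than in any endothelial one. The anterior genes of the cluster differed as much, with 3.80 ± 0.93 for Hoxc4, 2.75 ± 0.74 for Hoxc6 and 3.63 ± 0.84 for Hoxc8. With only the WT sorted groups in the fit Hoxc6 lost its call (edgeR adjusted p = 0.0532). The calls of Hoxc5 and Hoxc9 were each lost in 5 of 12 alternatives (edgeR adjusted p up to 0.145 and 0.0864), among them without CD31WT replicate 2 or PDGWT replicate 2 for both, without CD31WT replicate 1 or PDGWT replicate 1 for Hoxc5 and without CD31WT replicate 3 for Hoxc9. Outside cluster C, Hoxa10 was the gene higher in FAPs, at 8.21, 9.94 and 10 against 5.08, 2.29 and 1.36 CPM (1.68 ± 0.43).

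Between DUX4 cells 3 of the 29 were higher in FAPs, Hoxc9, Hoxc10 and Hoxc11, and 13 lower (55.2%), against 33.7% of all genes, 16.4% higher and 17.3% lower. Hoxa5 was at 31.8, 24.6, 22.6 and 24.2 CPM in CD31DUX and 1.57, 1.82, 1.9 and 0.942 in PDGDUX, and the change of -4.05 ± 0.30 had an edgeR adjusted p of 2.89e-08. Hoxb7 was at 13.8, 7.95, 11.6 and 9.83 against 0.184, 0.427, 1.23 and 0.342 CPM (-4.29 ± 0.53). Both thus kept the order of the WT cells. Hoxc10 was at 7.74, 8.33, 7.3 and 8.47 CPM in PDGDUX and 6.09, 2.74, 2.26 and 2.09 in CD31DUX (1.27 ± 0.39; edgeR adjusted p = 0.0196). The call was lost without CD31DUX replicate 2, 3 or 4 (up to 0.0663), and that of Hoxc9 in 6 of 14 alternatives (up to 0.125), namely without any of the 4 CD31DUX libraries, without PDGDUX replicate 3 and with no filter on low counts. That of Hoxb2 was lost in 4 (up to 0.0798), without CD31DUX replicate 2 or PDGDUX replicate 1 or 4 and with no filter. Hoxc4, Hoxc5, Hoxc6 and Hoxc8 had positive changes that were not called (edgeR adjusted p = 0.0642, 0.105, 0.152 and 0.0612). Hoxa4 was at 0 in every PDGDUX library and at least 3.35-fold lower there. For Hoxb9, with 2 counts in PDGDUX, the pooled ratio of CD31DUX over PDGDUX was 66.3 (95% counting interval 18.2 to 550). Called lower in DUX4 FAPs were also 8 of 8 muscle fibre, 6 of 6 satellite cell and 5 of 6 mural markers. So were 5 of 6 tendon, 4 of 5 Schwann, 3 of 6 macrophage and 3 of 6 slow fibre markers. Of the mural, tendon and slow fibre markers, 1 each was called higher. The FAP markers summed to 26900 to 31800 CPM in CD31DUX, against 7960 to 10800 in CD31WT. The part of these cells in the Hox differences was not tested.

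**Figure D5:**
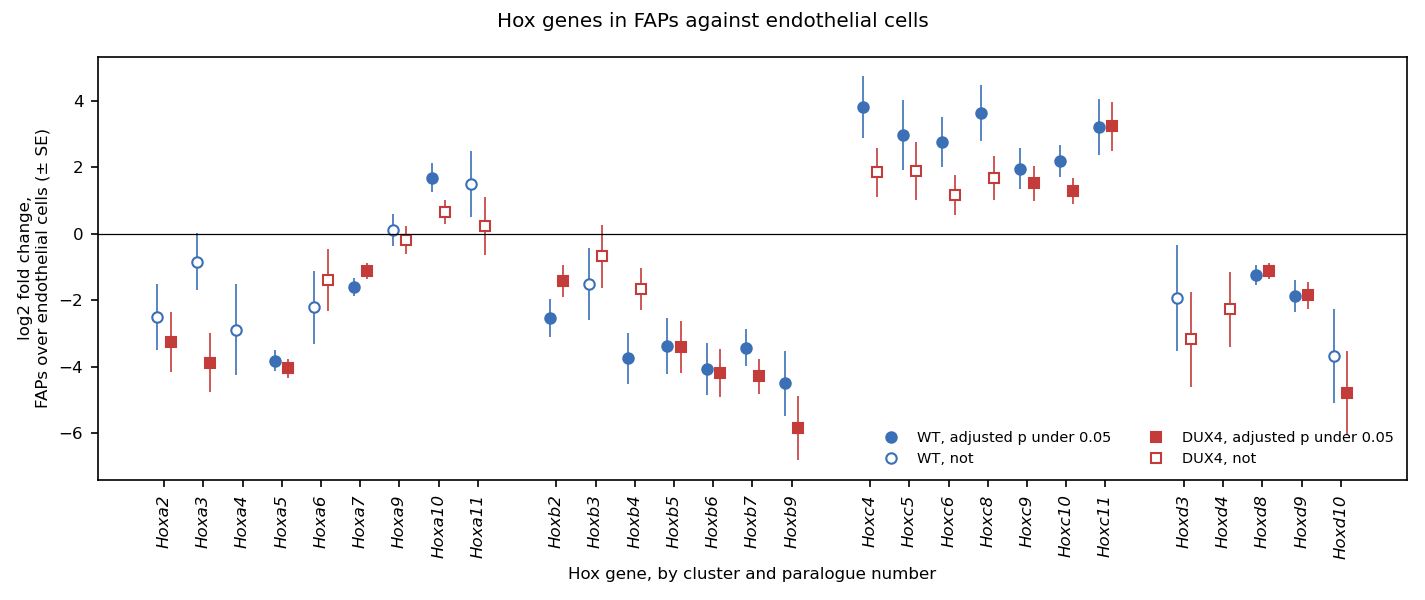
Log2 fold change (± SE) of FAPs over endothelial cells for Hox genes tested, by cluster and paralogue number, in WT and in DUX4 cells; filled points have an edgeR adjusted p under 0.05. Cluster C lies above 0 and clusters B and D mostly below; Hoxd4 in WT and Hoxa4 in DUX4 cells are not drawn because the FAP libraries were at 0.

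Within a cell type no Hox gene was called between DUX4 and WT. In endothelial cells the count was 0 of 29 by edgeR, DESeq2 and limma voom, where edgeR called 5.07% of all genes (3.72% higher and 1.35% lower), and 2 were higher and 0 lower at an unadjusted p under 0.05. The 7 genes of cluster C all had positive values, from 0.14 to 1.66, such as Hoxc6 at 3.02, 2.37, 1.97 and 1.61 CPM in CD31DUX and 0.0518, 0.727 and 1.59 in CD31WT (1.5 ± 0.69; edgeR adjusted p = 0.265). The 7 of cluster B all had negative values. Of the FAP markers 7 of 8 were higher in CD31DUX than in CD31WT, with the sums given above, and FAPs are the cells where cluster C was high and cluster B low. Their part in these values was not tested. In FAPs the count was 0 of 29 by edgeR and limma voom and 1 lower by DESeq2, where edgeR called 3.0% of all genes, with 3 higher and 3 lower at an unadjusted p under 0.05. The 5 tested genes of cluster D had positive values, such as Hoxd8 at 8.11, 11.6, 13.6 and 14.7 CPM in PDGDUX and 5.62, 6.22 and 10.8 in PDGWT (0.67 ± 0.28; edgeR adjusted p = 0.264). The difference between the effects in FAPs and in endothelial cells was called for 0 of the 29 by edgeR and DESeq2 (2.25% of all genes by edgeR, 0.553% more positive in FAPs and 1.7% more negative), with 3 and 1 at an unadjusted p under 0.05.

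Of the 10 TALE cofactors, with which Hox proteins bind DNA, 9 were tested. In whole muscle 3 rose with DUX4 after 2 weeks and 0 fell (20.7% of all genes were called), among them Meis1 by 0.80 ± 0.19 and Pknox2 by 0.82 ± 0.22 (edgeR adjusted p = 0.00724 and 0.0144). After 16 weeks 2 rose, with Meis2 at 1.49 ± 0.46 (0.0211), and Pknox1 fell by 0.59 ± 0.17 (0.0151), where 30.2% of all genes were called. In WT FAPs 5 were higher than in endothelial cells and 1 lower (31.1% of all genes), led by Meis1 with 23.2 ± 5.6 against 2.8 ± 1.53 CPM (SD, n = 3 each; 3.05 ± 0.40 on the log2 scale, edgeR adjusted p = 1.48e-05) and Meis3 with 2.23 ± 0.36. In DUX4 cells 4 were higher and 0 lower (33.7% of all genes). None was called by edgeR between DUX4 and WT within a cell type. Meis2 also followed the 2-week sets, at 3.12 ± 0.463 CPM in replicates 1 to 3 (SD, n = 6) and 0.438 ± 0.35 in replicates 4 and 5 (SD, n = 4), a gene singled out after its values were seen.

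Of the 22 Polycomb and trithorax genes, which keep Hox clusters off or on, 2 rose and 2 fell with DUX4 after 2 weeks and 3 rose and 4 fell after 16 weeks, near the 20.7% and 30.2% of all genes called. Ezh1, a methyltransferase of the Polycomb repressive complex, fell by 0.77 ± 0.13 (edgeR adjusted p = 0.000383) and Cbx7, which reads its mark, by 0.76 ± 0.14 (0.001) after 16 weeks. After 2 weeks Cbx7 fell by 0.49 ± 0.13 and Phc2 rose by 0.62 ± 0.16 (0.0137 and 0.0107). In FAPs against endothelial cells 1 was higher and 3 lower in WT cells, with Phc2 at -1.34 ± 0.16 and Men1 at -0.82 ± 0.28, and 1 higher and 5 lower in DUX4 cells, where 31.1% and 33.7% of all genes were called.

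Noncoding and Evx genes inside the clusters number 19, of which 7 were tested in whole muscle and 8 in sorted cells. Hoxa11os, above, was the one called with DUX4, after 16 weeks, where 30.2% of all genes were called. After 2 weeks none was, where 20.7% of all genes were. In FAPs 4 were lower than in endothelial cells in WT and 3 in DUX4 cells, and 0 higher (14.5% and 17.3% of all genes were lower). Halr1, a long noncoding RNA, was at 11.9 ± 1.07 CPM in CD31WT and 0.311 ± 0.24 in PDGWT (SD, n = 3 each; -5.24 ± 0.66, edgeR adjusted p = 1.13e-05). Hotairm1, another, was at 17.8 ± 4.65 and 2.69 ± 0.255 CPM (-2.73 ± 0.42, edgeR adjusted p = 8e-05). Both lie at the anterior end of cluster A. Singled out after their values were seen, Hotair, transcribed between Hoxc11 and Hoxc12, was at 0 in all 6 libraries of 2-week replicates 1 to 3, at 0.675 to 1.6 CPM in replicates 4 and 5 and at 0.774 to 2.21 at 16 weeks. Hoxd3os1, antisense in cluster D, was at 4.99 ± 0.984, 0.609 ± 0.3 and 2.16 ± 0.623 CPM, in the order of Hoxd8.

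Of 15 protein-coding neighbours outside the clusters, 12 were tested in whole muscle and 13 in sorted cells. With DUX4 2 rose and 2 fell after 2 weeks, and 3 rose and 4 fell after 16 weeks, beside 20.7% and 30.2% of all genes. Calcoco1, near cluster C, fell by 0.40 ± 0.08 and by 0.56 ± 0.09 (edgeR adjusted p = 0.0033 and 0.000425), and Hibadh, near cluster A, by 0.33 ± 0.09 and by 0.40 ± 0.10. In FAPs against endothelial cells 3 were higher and 1 lower in WT cells, and 4 and 3 in DUX4 cells, beside 31.1% and 33.7% of all genes. Hibadh was higher by 1.03 ± 0.14 in WT FAPs and Skap2, on the other flank of cluster A, was at -1.56 ± 0.31.

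Among 12 genes of the signals that set axial identity, 7 were tested in whole muscle. Aldh1a1, which makes retinoic acid, fell with DUX4 by 1.0 ± 0.23 after 2 weeks and by 0.84 ± 0.25 after 16 weeks (edgeR adjusted p = 0.00523 and 0.0185), and by 1.15 ± 0.24 in FAPs (0.0152). After 2 weeks these were 0 higher and 2 lower with the receptor gene Rara (-0.57 ± 0.19), and after 16 weeks 1 and 1, with Gdf11, a signal of posterior identity, higher by 2.13 ± 0.49 (0.00417), beside 20.7% and 30.2% of all genes called. In sorted cells 8 were tested. DUX4 FAPs had 0 higher and 2 lower, the other being Aldh1a3 (-1.49 ± 0.30), and DUX4 endothelial cells had 1 higher, Cyp26a1. Of all genes, 1.23% were called higher and 1.77% lower in DUX4 FAPs, and 3.72% higher in DUX4 endothelial cells. Of the list 4 were higher and 1 lower in WT FAPs than in endothelial cells, where Aldh1a1 had the smallest p (3.24 ± 0.28; edgeR adjusted p = 1.92e-07), and 2 and 1 in DUX4 cells, beside 31.1% and 33.7% of all genes.

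Of 16 limb type and position genes outside Hox, 13 were tested in whole muscle. Tbx4, a hind limb transcription factor, was at 5.08 to 7.46 CPM in DUX4 and 1.34 to 2.26 in WT muscle at 16 weeks (1.66 ± 0.24; edgeR adjusted p = 0.000145). Its change was larger at 16 than at 2 weeks by 1.99 ± 0.33 (0.0126), the only member of the list so called (0.89% of all genes). Six2, active in tendon and connective tissue of the limb, fell from 13.9 ± 3.65 to 4.48 ± 1.82 CPM (SD, n = 4 each; -1.67 ± 0.28, edgeR adjusted p = 0.000456). In all, 4 rose and 3 fell after 16 weeks, and 2 rose and 1 fell after 2 weeks, with Eya1 at 1.14 ± 0.20 and Tbx15 at -0.73 ± 0.18, where 30.2% and 20.7% of all genes were called. In WT FAPs 8 of the 15 tested were higher than in endothelial cells and 2 lower, with Shox2 at 28.9 ± 1.54 against 3.35 ± 1.18 CPM and Tbx15 at 95.9 ± 21.8 against 10.6 ± 6.66 (SD, n = 3 each; 3.10 ± 0.26 and 3.17 ± 0.36, edgeR adjusted p = 9.39e-08 and 3.97e-06). In DUX4 cells these counts were 7 and 2, and of all genes 31.1% and 33.7% were called in the WT and DUX4 comparisons. Between genotypes Tbx15 was higher in DUX4 endothelial cells (1.22 ± 0.32, edgeR adjusted p = 0.0386), where 3.72% of all genes were called higher.

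Between the sets of whole muscle, limb genes singled out after their values were seen differed as well. Pax3, a gene of muscle precursors, was at 3.57 ± 1.21 CPM in 2-week replicates 1 to 3, 0.531 ± 0.305 in replicates 4 and 5 and 0.215 ± 0.119 at 16 weeks (SD; n = 6, 4 and 8). Six2 was at 0.921 ± 0.157, 3.93 ± 1.51 and 9.18 ± 5.69 CPM. The limb type genes Tbx5 (forelimb) and Pitx1 (hind limb) were both low, at 1.01, 0.19 and 0.252 and at 1.63, 0.257 and 0.312 CPM, and both higher in mean in replicates 1 to 3. Tbx4 was at 2.04 CPM in both 2-week sets. The ranges of the 2-week sets do not overlap for Pax3, Six2 and Tbx5.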

How the data were processed

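RNA-seq was measured in whole muscle (500 ng of RNA per library) and in sorted cells. The deposited values are expected counts per gene, which the authors estimated with Salmon 0.6.0 on mm10 after CASAVA 1.8, per the submitters' processing notes. Which annotation was used, and how transcripts were joined into genes, is not given in the sources used here. Expected counts were rounded here. Symbols, exon lengths and positions come from GENCODE vM21 (GRCm38), and promoters from RefSeq (GRCm38.p6).

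Whole-muscle and sorted libraries, made with different kits, were fitted apart with edgeR 4.0.16 in R 4.3.3 (filterByExpr with a minimum count of 10, TMM, robust quasi-likelihood test, Benjamini-Hochberg over all genes tested; called at an adjusted p under 0.05). The whole-muscle fit had a term for 2-week replicates 1 to 3 against 4 and 5. SE is the log2 change divided by the root of F. A Hox gene is expressed at a mean of 1 CPM. Comparisons of sets, and of 16 with 2 weeks, are descriptions. Named are the 4 Hox genes highest per kb in each material, those called with DUX4, the 6 with the largest and the 4 with the smallest ratio of the 2-week sets, the 6 with the smallest p in WT FAPs against endothelial cells, Hoxd8, and from each other list at most 2 called genes per comparison, by smallest p. The values of 1 Hox gene, which is in the counts, are not reported here. Members and lists were chosen with earlier results of these data known. Replicates are numbered in accession order. Alternatives were DESeq2 1.42.0, limma 3.58.1 (voom), RLE scaling, no filter, a minimum of 30 counts, no term for sets, each set alone, only the groups compared and each library left out. Leaving out WT.16Weeks replicates 1 and 4 together was an alternative added after the data were seen. Simulated data had the spread of all whole-muscle or all sorted libraries in the fit. For the 16-week comparison 44.4% of 99 changes of log2 1 and 81.4% of 97 of log2 2 were recovered over 15090 genes. For WT FAPs against endothelial cells these were 21.9% and 53.1%, of 96 each, over 16438. Far more genes were called in the real comparisons, where the adjusted cut-off is less strict, so these shares do not give the recovery there.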

Additional observations from a re-analysis of the deposited data

Results flagged for a closer look

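Hoxc10 was at 6.09 CPM in CD31DUX replicate 1, against 2.09 to 2.74 CPM in the other CD31DUX libraries. Its distance to the nearest of them was 0.838 of the range of the group, which is wide enough to set it apart at 4 libraries. It was the 1 case among 72 groups of values checked, where chance gives about 1 in 20.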

How the results depend on the processing

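No paired analysis was possible because the replicate numbers follow accession order and the labels do not say which libraries share a mouse. Whether endothelial cells and FAPs came from the same mice is thus unknown, and the fit took the sorted libraries as independent. The number of Hox genes called with DUX4 after 2 weeks, 1, was 3 with DESeq2 (2 higher), 4 with limma voom (2 higher), 2 with a minimum of 30 counts or only the groups compared, 0 in replicates 4 and 5 alone, and 0 to 3 without each library in turn (0 without IDUX.2Weeks replicate 2 or 5 or WT.2Weeks replicate 2 or 4, 3 without IDUX.2Weeks replicate 4 or WT.2Weeks replicate 5). After 16 weeks the 5 became 9 with limma voom (2 higher, 7 lower), 2 with no term for sets and 4 to 7 without each library. In endothelial cells the 0 became 1 without CD31WT replicate 1 (0 to 1 over the libraries), in FAPs 1 with DESeq2, and for the difference between the times 1 with DESeq2. Asking for a mean ratio of at least 4 left 2 Hox genes higher in replicates 1 to 3 in place of 4. Over 42 called gene results and 560 alternative values, 516 kept direction and call, 44 lost the call and 0 reversed. RLE scaling moved the median of all genes by at most 0.08. Depth limits the ratios of Hoxc10, Hoxc11, Hoxd10, Hoxa4, Hoxb9, Hoxd4 and Hotair, which have few or no counts in a group compared.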
